A study of Mus musculus with 50 samples.

Results

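The colon transcriptome of FADD IEC-KO Zbp1 -/- mice was set against that of FADD IEC-KO mice, to ask how loss of Zbp1 alters the tissue when epithelial cells lack FADD. The comparison was chosen by array title and rests on 5 arrays numbered 1 to 5 against 5 arrays numbered 21 to 25, which are 10 of the 50 arrays of the series, over 19494 genes. FADD IEC-KO mice lack FADD in intestinal epithelial cells, and FADD IEC-KO Zbp1 -/- mice carry the same epithelial deletion together with the Zbp1 -/- genotype, which names no cell type. Groups used for orientation were FADD IEC-KO Mlkl -/- (arrays 11 to 15), which shares the epithelial deletion and carries Mlkl -/-, FADD IEC-KO RIPK3 IEC-KO (arrays numbered 88 to 123), which lacks FADD and RIPK3 in epithelial cells, a second FADD IEC-KO group (arrays numbered 89 to 124), Fadd fl/fl mice (arrays 26 to 30) and Casp8 fl/fl mice (arrays numbered 86 to 119), each of 5 arrays. The remaining arrays were of CASP8 IEC-KO mice (arrays 16 to 20 and arrays numbered 87 to 108) and CASP8 IEC-KO Mlkl -/- mice (arrays 6 to 10). They lack caspase-8 in epithelial cells. These arrays entered the fit that gives the spread, and the counts over all other arrays. All samples were colon tissue, described as taken at 11 weeks of age, and the design text gives 10 to 12 weeks. The transgene that drives the epithelial deletion, the sex of the mice and the number of mice behind each array are not in the labels. The p-values therefore measure only a spread between arrays, which may be technical in part. That spread was pooled over the 10 groups of all 50 arrays, and it can be smaller than the spread within FADD IEC-KO. Whole tissue was measured, so fewer cells of a type and less RNA per cell cannot be told apart.

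ZBP1 is an interferon-inducible sensor that binds left-handed Z-form nucleic acids and recruits the kinase RIPK3 through RHIM domains. RIPK3 then phosphorylates MLKL, which permeabilises the plasma membrane in the lytic death called necroptosis. Caspase-8 joins death receptor complexes through FADD, and there it can start apoptosis and also holds RIPK3 in check. In mouse intestine, loss of FADD or caspase-8 in epithelial cells is known to release necroptosis and to inflame the gut.

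Array medians lay between 6.41 and 6.47 on the log2 scale across the 50 arrays. Colonocyte and goblet cell markers were bright in FADD IEC-KO Zbp1 -/- colon, where Car1 lay between 12.3 and 12.9 and Muc2 between 12.7 and 12.8, and the muscle marker Acta2 lay between 12.3 and 12.4. The 2 FADD IEC-KO groups were the most dispersed of the FADD and floxed groups listed above. Their median SD over genes was 0.20 log2 on arrays 21 to 25 and 0.19 on arrays 89 to 124. It was 0.16 for FADD IEC-KO Zbp1 -/- and 0.16 for Fadd fl/fl. On arrays 21 to 25 of FADD IEC-KO, 12917 genes (66.3%) had a larger SD than in FADD IEC-KO Zbp1 -/-. Arrays 22 and 23 carried the highest neutrophil list means of FADD IEC-KO (8.24 and 7.01) and array 21 the lowest (5.16), so counts are given with all arrays and without arrays 22 and 23. Y-linked genes were high on 2 of 5 arrays in both groups.

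The targeted genes were read first. Zbp1 had log2 signals of 5.28, 5.77, 5.53, 6.10 and 4.77 on the FADD IEC-KO Zbp1 -/- arrays 1 to 5, against 6.34, 8.03, 7.50, 7.31 and 7.27 on the FADD IEC-KO arrays 21 to 25 and 5.67, 5.75, 5.36, 5.79 and 5.82 on the Fadd fl/fl arrays 26 to 30. Every FADD IEC-KO Zbp1 -/- array lay below every FADD IEC-KO array, and the range of the FADD IEC-KO Zbp1 -/- arrays overlapped that of the floxed controls. Zbp1 fell by 1.80 ± 0.27 on the log2 scale (SE, adjusted p = 6.65e-05), and without arrays 22 and 23 the difference was -1.48 (adjusted p = 0.016). Where the probe set lies relative to the deleted part of Zbp1 is not known here. Fadd, the adaptor itself, had signals of 6.33, 6.06, 6.30, 6.46 and 6.00 in FADD IEC-KO Zbp1 -/- colon, against 6.45, 6.50, 6.45, 6.32 and 6.22 in FADD IEC-KO colon and 7.61, 7.32, 7.47, 7.37 and 7.12 in Fadd fl/fl colon. Both deleted groups lay below all floxed arrays and overlapped each other, with a difference of -0.16 between them (adjusted p = 0.404).

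Among the partners of ZBP1, Casp8, which encodes the protease held by FADD, had signals of 10.33, 9.90, 10.36, 10.22 and 10.16 in FADD IEC-KO Zbp1 -/- colon, against 10.59, 10.79, 10.73, 10.73 and 10.57 in FADD IEC-KO colon. The groups did not overlap, and Casp8 fell by 0.49 ± 0.11 (adjusted p = 0.00421; -0.44 and 0.0951 without arrays 22 and 23). Ripk3, the necroptosis kinase, had signals of 7.34, 7.16, 7.48, 7.83 and 7.22, against 7.62, 9.66, 8.47, 7.85 and 8.04 in FADD IEC-KO colon. Array 22 was the highest, array 21 lay within the range of the FADD IEC-KO Zbp1 -/- arrays, and Ripk3 fell by 0.92 ± 0.25 (adjusted p = 0.0142; -0.43 and 0.423 without arrays 22 and 23). Mlkl, the executor of necroptosis, had signals of 8.54, 8.51, 8.87, 8.97 and 8.55, against 8.73, 9.56, 8.98, 9.17 and 9.17 in FADD IEC-KO colon, and its difference of -0.43 did not pass (adjusted p = 0.0867).

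**Figure D1:**
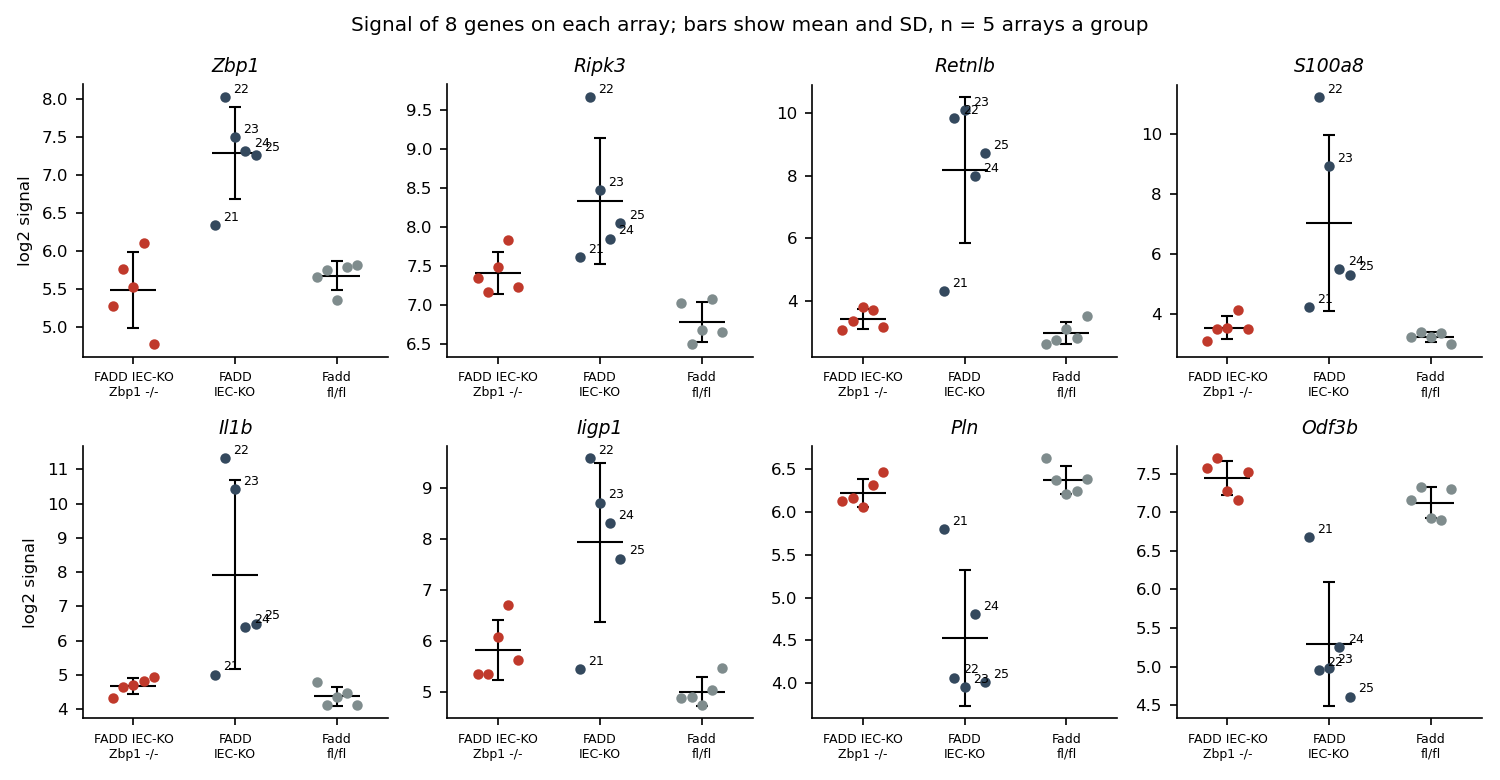
Log2 signal (y axis) of 8 genes on each array, as 1 point an array, for FADD IEC-KO Zbp1 -/-, FADD IEC-KO (replicate numbers beside the points) and Fadd fl/fl, with the mean and SD of 5 arrays. Retnlb lay between 3.07 and 3.79 in FADD IEC-KO Zbp1 -/- colon and between 4.31 and 10.09 in FADD IEC-KO colon, where array 21 was the lowest.

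Across all genes, 1094 rose (5.61% of those tested) and 1002 fell (5.14%) in FADD IEC-KO Zbp1 -/- colon relative to FADD IEC-KO colon at an adjusted p under 0.05 in limma, 2096 in all (10.8%). At least a 2-fold change was seen for 65 genes that rose and 119 that fell. The 5 and 5 arrays did not overlap for 1131 genes (5.8%), of which 821 (4.21%) were also called. Without the FADD IEC-KO arrays 22 and 23 the counts were 55 higher (0.282%) and 66 lower (0.339%), 121 in all (0.621%). Of the 2096 genes, 119 were called in the same direction in that reduced set and 2094 had the same sign. The reduced set keeps all other arrays, so kept signs are no separate support. With only the 10 arrays in the model, which estimates the spread from these alone, 96 genes (0.492%) were higher and 88 (0.451%) lower, and all 184 (0.944%) were among the 2096.

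Among genes whose groups did not overlap, those that fell furthest included a goblet cell product, neutrophil genes and cytokines. Retnlb, a goblet cell resistin-like protein with antibacterial activity, had signals of 3.07, 3.36, 3.79, 3.70 and 3.18 in FADD IEC-KO Zbp1 -/- colon, against 4.31, 9.85, 10.09, 7.98 and 8.72 in FADD IEC-KO colon and 2.63, 2.74, 3.10, 2.83 and 3.51 in Fadd fl/fl colon. All FADD IEC-KO arrays lay above both other groups, array 21 by the least, and Retnlb fell by 4.77 ± 0.79 (adjusted p = 0.000277; -3.58 and 0.0366 without arrays 22 and 23). S100a8, a calprotectin subunit abundant in neutrophils, had signals of 3.07, 3.48, 3.51, 4.11 and 3.47, against 4.21, 11.26, 8.93, 5.48 and 5.30 in FADD IEC-KO colon. The groups did not overlap, but array 21 lay only just above them and arrays 22 and 23 far above the rest, and S100a8 fell by 3.51 ± 0.89 (adjusted p = 0.00854; -1.47 and 0.424 without arrays 22 and 23). Il1b, the pyrogenic cytokine of the inflammasome pathway, had signals of 4.31, 4.63, 4.69, 4.82 and 4.94, against 5.01, 11.32, 10.42, 6.40 and 6.50 in FADD IEC-KO colon. Arrays 22 and 23 were again far above the rest, and Il1b fell by 3.25 ± 0.86 (adjusted p = 0.012), with -1.29 and 0.501 without them.

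Pla2g2a, a secreted phospholipase with antibacterial activity, had signals of 7.19, 7.07, 7.31, 8.06 and 6.10 in FADD IEC-KO Zbp1 -/- colon, against 8.32, 10.70, 10.81, 9.74 and 8.85 in FADD IEC-KO colon and 6.34, 4.94, 5.58, 6.00 and 4.91 in Fadd fl/fl colon. FADD IEC-KO Zbp1 -/- arrays lay between the other groups, with 1 of 5 inside the floxed range, and Pla2g2a fell by 2.54 ± 0.54 (adjusted p = 0.00216). Serpina3n, an acute-phase protease inhibitor, fell by 2.00 ± 0.41, the neutrophil attractant Cxcl2 by 2.33 ± 0.63, the macrophage chemokine Ccl3 by 2.41 ± 0.61 and the alarmin cytokine Il1a by 2.05 ± 0.59. These differences, without arrays 22 and 23, were -1.22 for Serpina3n, -0.71 for Cxcl2, -0.73 for Ccl3 and -0.42 for Il1a, and none passed. Without array 22 alone Cxcl2 (-1.53), Ccl3 (-1.61) and Il1a (-1.33) did not pass. For Il1a, FADD IEC-KO arrays 21 and 24 were at 4.1724 and 4.1776, only just above the highest FADD IEC-KO Zbp1 -/- array at 4.1626. Scnn1g, the gamma subunit of the epithelial sodium channel, had signals of 7.42, 7.31, 7.67, 6.80 and 7.15, against 8.29, 8.91, 8.71, 9.46 and 9.72 in FADD IEC-KO colon and 9.06, 8.18, 8.55, 7.87 and 7.68 in Fadd fl/fl colon. It fell by 1.75 ± 0.37 (adjusted p = 0.00213; 0.03 without arrays 22 and 23), and in contrast to Retnlb its highest FADD IEC-KO values were on arrays 24 and 25 and all 5 FADD IEC-KO Zbp1 -/- arrays lay below every floxed array. Wfdc18 (-1.68) and the keratin-associated gene Krtap13 (-1.58) completed, with Zbp1, the 12 largest falls among genes without overlap. Overlapping genes with falls of over 2 log2 units included Clca4b (-3.22), Plet1 (-2.64), Ido1 (-2.62) and S100a9 (-2.36).

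The 12 largest rises among genes without overlap are given next. Larger or like rises in overlapping genes included Retnla (2.63), Cyp2c55 (2.32), Slc37a2 (1.92) and Slc34a2 (1.79). Odf3b, named for outer dense fibres of sperm tails, had signals of 7.58, 7.70, 7.27, 7.16 and 7.52 in FADD IEC-KO Zbp1 -/- colon, against 6.68, 4.95, 4.99, 5.25 and 4.61 in FADD IEC-KO colon and 7.16, 7.32, 6.93, 6.91 and 7.30 in Fadd fl/fl colon. All 5 FADD IEC-KO arrays were below both other groups, array 21 least so, and Odf3b rose by 2.15 ± 0.35 (adjusted p = 0.000186; 0.0182 without arrays 22 and 23). Pln, phospholamban, the regulator of the muscle calcium pump, had signals of 6.13, 6.16, 6.06, 6.31 and 6.46, against 5.80, 4.07, 3.95, 4.80 and 4.01 in FADD IEC-KO colon, and rose by 1.70 ± 0.30 (adjusted p = 0.000561; 0.0402 without arrays 22 and 23). Casq2, calsequestrin, which stores calcium in muscle, rose by 1.46, the small heat shock protein Hspb8 by 1.31, and the matrix genes Aspn, Abi3bp, Ecm2 and C1qtnf3 by 1.34, 1.31, 1.25 and 1.46. Naaladl1 rose by 1.74, Tppp by 1.28, Capsl by 1.26 and the brush border protease Mep1a by 1.26.

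**Figure D2:**
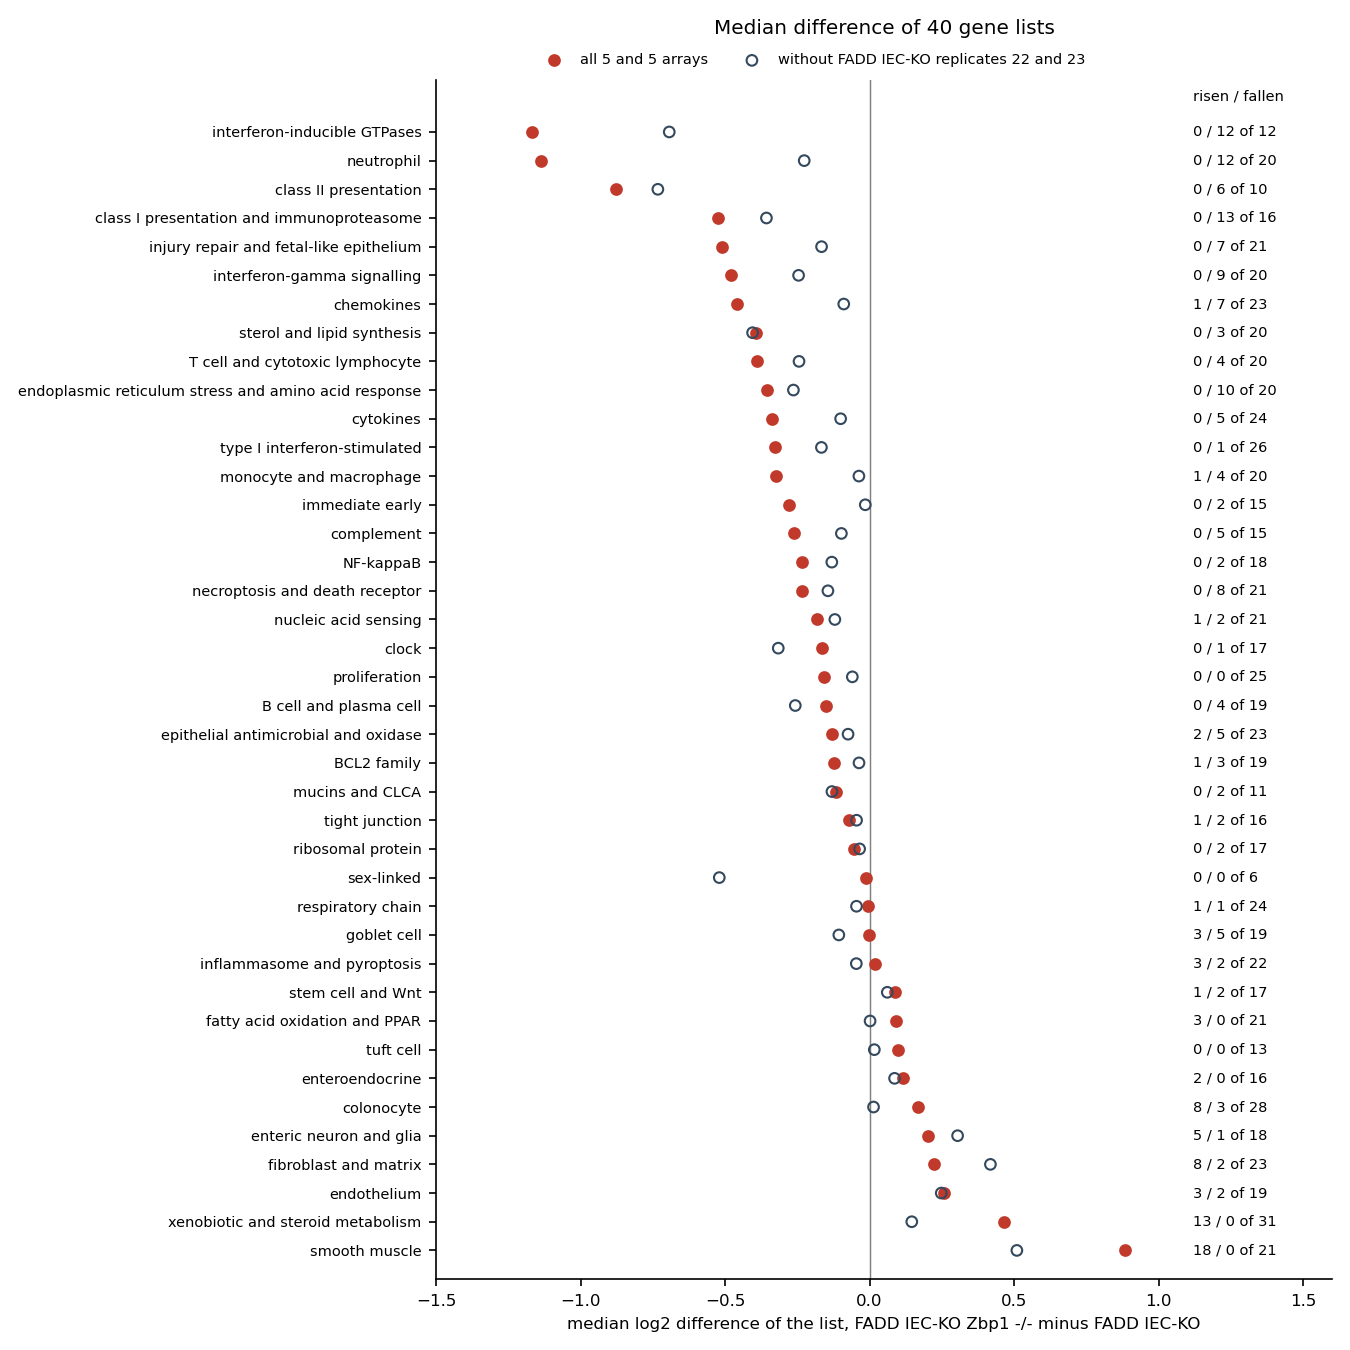
Median log2 difference (x axis, FADD IEC-KO Zbp1 -/- minus FADD IEC-KO) of 40 gene lists (y axis), filled with all arrays and open without FADD IEC-KO arrays 22 and 23, with the genes risen and fallen of those measured at the right. The interferon-inducible GTPases had the lowest median, -1.17, and smooth muscle the highest, 0.88.

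The interferon-inducible GTPases had the lowest median of the 40 lists with all arrays, close to that of neutrophil genes (-1.14), and without arrays 22 and 23 the class II median was lower (-0.73 against -0.69). Counts of lists rest on these arrays: 37 of 40 lists held a gene past the threshold with all arrays and 8 without arrays 22 and 23 (necroptosis and death receptor, nucleic acid sensing, epithelial antimicrobial, colonocyte, goblet cell, tight junction, smooth muscle, fibroblast and matrix). All 12 interferon-inducible GTPases measured fell, with a median of -1.17 against 0.01 over all genes tested. Some members of these families coat and disrupt vacuoles of intracellular pathogens. Iigp1 had signals of 5.35, 5.36, 6.09, 6.72 and 5.62 in FADD IEC-KO Zbp1 -/- colon, against 5.46, 9.58, 8.72, 8.31 and 7.62 in FADD IEC-KO colon and 4.89, 4.91, 4.75, 5.05 and 5.48 in Fadd fl/fl colon. Tgtp2 had signals of 5.97, 5.56, 6.70, 7.20 and 6.02, against 5.51, 10.28, 9.37, 8.81 and 8.55 in FADD IEC-KO colon. FADD IEC-KO array 21 lay among the FADD IEC-KO Zbp1 -/- arrays for Iigp1 and just below them for Tgtp2, the other 4 lay above all of them, and none of the 12 genes was free of overlap. Iigp1 fell by 2.11 ± 0.46 (adjusted p = 0.00292), Tgtp2 by 2.22 ± 0.58 (adjusted p = 0.011), Gbp3 by 1.18 and Gbp8 by 1.16. Without arrays 22 and 23 the median was -0.69 and none of the 12 passed, and none passed with only the 10 arrays in the model. Several of these genes have near-identical copies, as do the Gsdmc, Bcl2a1, Mptx and Reg3 genes, and probe sets may not tell such copies apart.

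The promoters of the GTPase genes are shown because these genes moved together and the family is induced through interferon response elements. Of the 12 genes, 7 had a promoter in the RefSeq table (GRCm38.p6), taken as 250 bases before to 50 after the start. All 7 held, on either strand, letters like those of the interferon-stimulated response element, TTTC with 2 bases of any kind and then TTTC, which 3.44% of the 32851 promoters of this length in the table held, and 4 held the GAS-like letters TTCNNNGAA (8.3% of promoters), none of these overlapping the first motif. Capitals mark the first motif, which reads GAAA with 2 bases of any kind and then GAAA where it lies on the other strand, and the windows are chr3:142620413-142620712 on the plus strand for Gbp2, chr11:58199306-58199605 on the plus strand for Igtp, chr11:58214727-58215026 on the plus strand for Irgm2 and chr11:49064163-49064462 on the minus strand for Tgtp2.
Gbp2: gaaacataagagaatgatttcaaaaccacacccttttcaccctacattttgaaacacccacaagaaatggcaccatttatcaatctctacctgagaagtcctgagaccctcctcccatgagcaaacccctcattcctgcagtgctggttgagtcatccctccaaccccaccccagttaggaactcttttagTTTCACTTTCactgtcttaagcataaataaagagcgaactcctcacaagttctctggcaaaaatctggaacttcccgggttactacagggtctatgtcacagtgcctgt
Igtp: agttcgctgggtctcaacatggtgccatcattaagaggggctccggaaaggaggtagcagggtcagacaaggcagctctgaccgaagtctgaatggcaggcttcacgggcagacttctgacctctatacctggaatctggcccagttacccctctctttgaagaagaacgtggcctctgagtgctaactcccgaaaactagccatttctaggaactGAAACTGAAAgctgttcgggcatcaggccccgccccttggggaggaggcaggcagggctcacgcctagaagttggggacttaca
Irgm2: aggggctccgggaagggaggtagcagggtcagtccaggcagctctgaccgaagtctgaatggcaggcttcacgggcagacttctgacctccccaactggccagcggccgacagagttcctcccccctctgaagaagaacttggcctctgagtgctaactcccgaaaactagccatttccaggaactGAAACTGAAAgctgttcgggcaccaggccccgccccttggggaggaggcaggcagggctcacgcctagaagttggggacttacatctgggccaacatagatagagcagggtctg
Tgtp2: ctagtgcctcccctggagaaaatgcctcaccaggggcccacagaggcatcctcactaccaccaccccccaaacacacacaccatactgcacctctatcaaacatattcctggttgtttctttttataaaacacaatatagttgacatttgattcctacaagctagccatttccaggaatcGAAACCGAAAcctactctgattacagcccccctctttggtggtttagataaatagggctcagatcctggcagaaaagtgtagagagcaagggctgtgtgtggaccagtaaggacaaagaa
The match began 59 bases before the start in Gbp2, 34 in Igtp, 64 in Irgm2 and 70 in Tgtp2. These 4 genes fell by 1.50 (Gbp2), 1.59 (Igtp), 0.99 (Irgm2) and 2.22 (Tgtp2), and they were chosen to show the motif after their values were seen. A match describes the letters and is not a measured binding site.

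Antigen presentation genes also fell. Among FADD IEC-KO arrays, array 25 had the highest class II mean (9.27, against 8.81 on array 22 and 8.79 on array 23) and in class I lay between array 22 and array 23. Of 16 genes of class I presentation and the immunoproteasome, 13 fell and none rose, with a median of -0.52 (-0.36 without arrays 22 and 23, where none passed). Psmb8, an immunoproteasome subunit, had signals of 7.02, 7.03, 7.81, 8.18 and 7.46 in FADD IEC-KO Zbp1 -/- colon, against 7.64, 9.80, 9.55, 8.83 and 9.24 in FADD IEC-KO colon, and fell by 1.52 ± 0.31 (adjusted p = 0.00168). The peptide transporter gene Tap1 fell by 1.28, the tapasin relative Tapbpl by 0.69 and the class I gene H2-Q4 by 0.89. Of 10 class II genes, 6 fell, with a median of -0.88 (-0.73 without arrays 22 and 23). H2-DMb1, a chain of the peptide-loading chaperone, had signals of 8.60, 8.10, 8.85, 8.91 and 9.04, against 8.46, 10.71, 10.85, 10.64 and 10.92 in FADD IEC-KO colon, where array 21 alone lay inside the FADD IEC-KO Zbp1 -/- range, and it fell by 1.61 ± 0.37. The class II transactivator gene Ciita fell by 0.75, H2-DMa by 1.07 and H2-Eb1 by 1.14.

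Of 20 interferon-gamma signalling genes, 9 fell and none rose, with a median of -0.48. The median was -0.25 without arrays 22 and 23, and none passed there or with only the 10 arrays in the model. They included Wars, an interferon-induced tryptophanyl-tRNA synthetase (-0.93 ± 0.17, adjusted p = 0.000674), the checkpoint ligand Cd274 (-1.30), the transcription factor Irf8 (-0.44) and the kinase Jak1 (-0.31). Of 26 type I interferon-stimulated genes measured, 25 had lower means in FADD IEC-KO Zbp1 -/- colon, with a median of -0.33, and 1 passed. This was Bst2, which tethers virions to the cell surface, with signals of 7.31, 6.73, 7.01, 7.53 and 7.43, against 7.47, 8.74, 8.30, 7.61 and 8.03 in FADD IEC-KO colon (-0.83 ± 0.19, adjusted p = 0.00383). The interferon regulator Irf7 had signals of 8.39, 8.09, 8.35, 8.15 and 8.06, against 8.48, 9.15, 9.26, 8.50 and 9.31 in FADD IEC-KO colon. Its groups did not overlap, yet its difference of -0.73 missed the threshold (adjusted p = 0.0536). Of 21 nucleic acid sensing genes, 2 fell and 1 rose, where 10.8% of all genes tested passed. The Z-RNA-binding editor Adar fell by 0.26 (adjusted p = 0.0436) and the kinase Eif2ak2 by 0.38, each without overlap. For Adar the nearest arrays of the 2 groups were at 8.9545 and 8.9551, and without array 22 alone neither gene passed. The transcription factor Irf3 rose by 0.51 ± 0.10 (adjusted p = 0.00113, and 0.0488 without arrays 22 and 23).

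**Figure D3:**
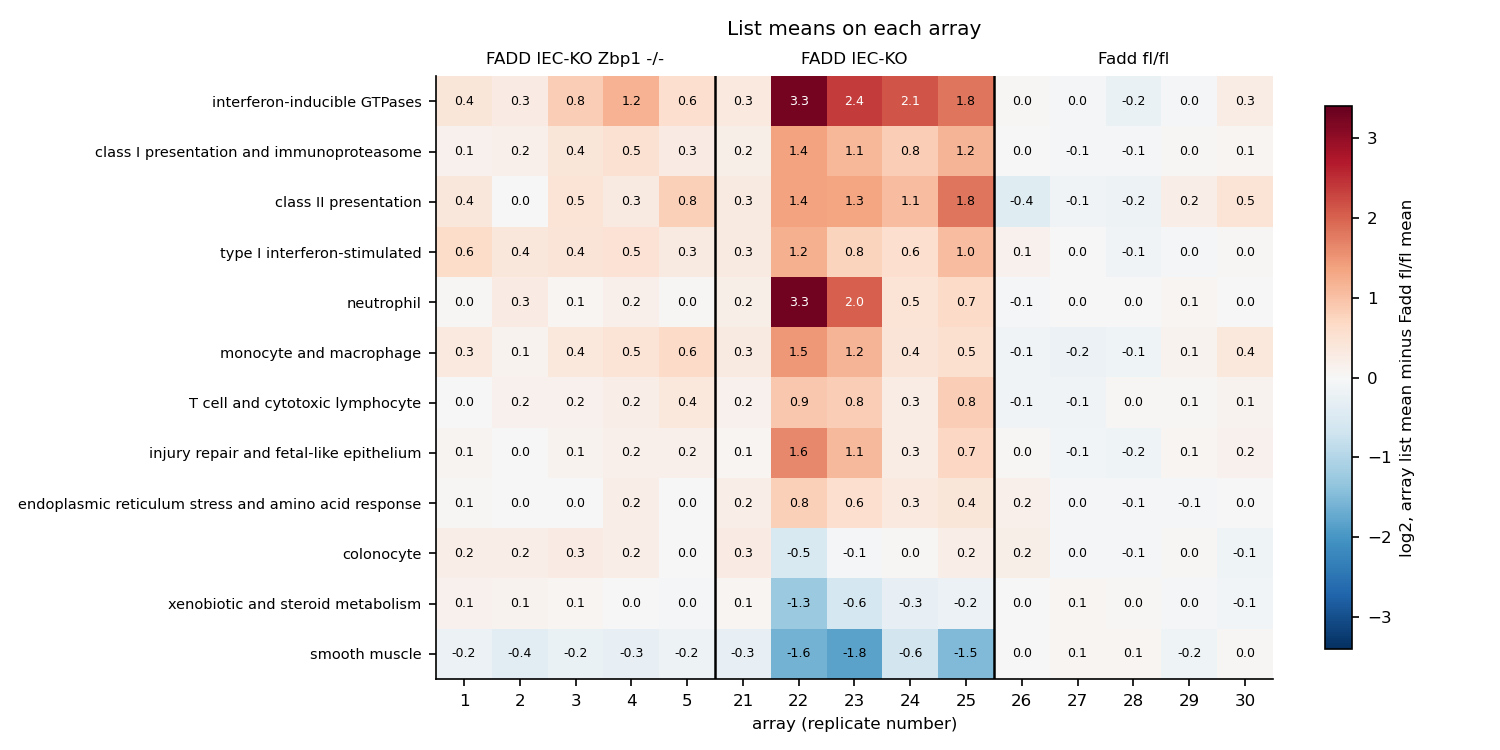
Mean of 12 gene lists (y axis) on each of 15 arrays (x axis, replicate number), as the log2 difference from the Fadd fl/fl mean, red for higher and blue for lower. Within FADD IEC-KO, array 22 had the highest mean of the GTPase and neutrophil lists, array 25 the highest of class II, and array 21 lay close to the FADD IEC-KO Zbp1 -/- arrays, whose interferon-inducible GTPase means ran from 6.63 to 7.53 against 6.68 to 9.60 in FADD IEC-KO colon.

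Markers of immune cells fell unevenly. Of 20 neutrophil genes, 12 fell and none rose, with a median of -1.14 that shrank to -0.23 without arrays 22 and 23, where none passed. Il1r2, a decoy receptor for interleukin-1, fell by 1.41, the leucine-rich glycoprotein Lrg1 by 1.23 and the granule protein Ltf by 1.15. The mean of the neutrophil list lay between 5.00 and 5.24 on FADD IEC-KO Zbp1 -/- arrays, between 5.16 and 8.24 on FADD IEC-KO arrays and between 4.90 and 5.02 on Fadd fl/fl arrays. Of 20 monocyte and macrophage genes, 4 fell and 1 rose, with a median of -0.32 that was -0.04 without arrays 22 and 23, where none passed. Arg1, arginase of alternatively activated macrophages, fell by 1.45 (-0.17 without arrays 22 and 23) and the Fc receptor genes Fcgr4 and Fcgr1 by 1.43 and 0.56, while the haemoglobin scavenger receptor Cd163 of resident macrophages rose by 0.68. The defining macrophage genes Adgre1 (0.01) and C1qa (-0.32) did not pass.

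Of 20 T cell and cytotoxic lymphocyte genes, 4 fell, namely the granzymes Gzma (-1.29) and Gzmb (-0.78), the chemokine Ccl5 (-1.21) and the coreceptor Cd4 (-0.62), whereas the T cell receptor subunit Cd3e (-0.49) did not pass. Gzmb had signals of 4.70, 4.91, 4.54, 4.45 and 4.50 in FADD IEC-KO Zbp1 -/- colon, against 4.99, 5.82, 5.92, 4.98 and 5.26 in FADD IEC-KO colon, without overlap. Of 19 B cell and plasma cell genes, 4 fell, namely Mzb1 (-1.40) and Prdm1 (-1.15) of antibody-secreting cells, the B cell coactivator gene Pou2af1 (-0.83) and Sdc1 (-0.48), a proteoglycan gene that epithelium also expresses. The B cell marker Ms4a1 (-0.13) and the joining chain gene Jchain (-1.28) did not pass. Among 23 chemokines, 7 fell and the mucosal chemokine Ccl28 rose by 0.40, and among 24 cytokines 5 fell, including Osm and Lif (-0.57) of the interleukin-6 family. Of 15 complement genes, 5 fell, among them C6 of the membrane attack complex (-0.91 ± 0.19, adjusted p = 0.002, no overlap). How far differences in cell content carry these values was not tested.

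Of 21 genes of necroptosis and death receptor signalling, 8 fell and none rose, with a median of -0.23. Leaving aside Zbp1, Fadd, Casp8, Ripk3 and Mlkl, which are described above, 5 of the remaining 16 fell. Tnf, the cytokine that engages this pathway, had signals of 5.04, 5.08, 5.30, 6.28 and 5.70 in FADD IEC-KO Zbp1 -/- colon, against 5.91, 8.82, 7.70, 6.78 and 6.95 in FADD IEC-KO colon, and fell by 1.75 ± 0.43 (adjusted p = 0.00687). Tnfaip3, which encodes the ubiquitin editor A20, had signals of 7.56, 7.70, 7.83, 7.94 and 8.05, against 8.19, 9.57, 8.61, 8.20 and 8.62 in FADD IEC-KO colon, and fell by 0.82 ± 0.20 without overlap. In the BCL2 family, 3 of 19 fell, the copies Bcl2a1a, Bcl2a1b and Bcl2a1d of a haematopoietic survival gene (-0.79, -0.74 and -0.88), and the pro-apoptotic Bmf rose by 0.32. Of 22 inflammasome and pyroptosis genes, the pore-forming Gsdmd fell by 0.42 along with Il1b, and 3 gasdermin C genes rose, among them Gsdmc by 0.53 and Gsdmc3 by 0.52. Without arrays 22 and 23 only Zbp1 of these 3 lists passed as lower, and no gene passed as higher.

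Epithelial lists moved in both directions. Of 23 epithelial antimicrobial and oxidase genes, 5 fell, led by Retnlb and Pla2g2a, and 2 rose, the mucosal pentraxins Mptx1 (1.70) and Mptx2 (1.48). Of 21 injury repair and fetal-like genes, 7 fell and none rose, with a median of -0.51 that was -0.17 without arrays 22 and 23, where none passed. They included the cornified envelope gene Sprr1a (-1.05, no overlap), the collagenase gene Mmp13 (-1.66), the urokinase receptor gene Plaur (-1.24) and Anxa1 (-0.51). Of 20 genes of endoplasmic reticulum stress and the amino acid response, 10 fell and none rose, with a median of -0.35 and 8 genes free of overlap. The median was -0.26 without arrays 22 and 23, where none passed, and 1 passed with only the 10 arrays in the model. Psat1, of serine synthesis, had signals of 6.07, 6.16, 6.40, 6.63 and 6.23 in FADD IEC-KO Zbp1 -/- colon, against 6.64, 8.05, 7.24, 7.11 and 6.89 in FADD IEC-KO colon, and fell by 0.89 ± 0.18 (adjusted p = 0.00165). Asparagine synthetase, Asns, fell by 0.68, and the chaperone genes Sdf2l1 and Dnajc3 by 0.61 and 0.44.

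Goblet cell genes split. The mucin Muc2 itself differed by -0.12 (adjusted p = 0.215), but 5 of 19 goblet genes fell and 3 rose. Spink4, a secreted protease inhibitor, had signals of 10.84, 11.09, 11.39, 11.10 and 10.92 in FADD IEC-KO Zbp1 -/- colon, against 11.44, 11.64, 12.46, 11.93 and 11.78 in FADD IEC-KO colon and 10.92, 10.79, 10.97, 11.11 and 10.79 in Fadd fl/fl colon. The groups with and without Zbp1 did not overlap, and it fell by 0.78 ± 0.17 (adjusted p = 0.00342). The transcription factors of secretory maturation Spdef (-0.45) and Creb3l1 (-0.56) and the glycosyltransferase gene Galnt12 (-0.62) fell, also without overlap. Of the mucins and CLCA genes, Clca4b fell by 3.22 ± 0.74 (adjusted p = 0.00435) and Muc1 by 0.80, 2 of 11. In tight junctions, the claudin Cldn4 fell by 1.15 and F11r by 0.34, and occludin, Ocln, rose by 0.54.

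Of 28 colonocyte genes, 8 rose and 3 fell, with a median of 0.17. That median was 0.01 without arrays 22 and 23, where none passed as higher and 1, Scnn1g, as lower. Slc37a2, a sugar-phosphate exchanger, had signals of 9.63, 11.25, 11.26, 11.13 and 10.91 in FADD IEC-KO Zbp1 -/- colon, against 9.72, 7.73, 8.23, 8.96 and 9.92 in FADD IEC-KO colon and 9.95, 10.69, 10.61, 11.00 and 10.65 in Fadd fl/fl colon. FADD IEC-KO Zbp1 -/- array 1 lay among the FADD IEC-KO arrays, the other 4 above all of them, and Slc37a2 rose by 1.92 ± 0.35 (adjusted p = 0.00072). The carbonic anhydrase gene Car1 rose by 0.84. Of the other colonocyte markers, Slc26a3 rose by 0.72, Krt20 fell by 0.36 and Aqp8 (0.79) did not pass. Of 31 genes of xenobiotic and steroid metabolism, 13 rose and none fell, with a median of 0.46, which was 0.15 without arrays 22 and 23, where none passed. Sult1a1, a sulfotransferase, had signals of 9.59, 9.74, 9.52, 9.47 and 9.78, against 9.28, 7.50, 8.24, 8.69 and 8.29 in FADD IEC-KO colon, and rose by 1.22 ± 0.24 (adjusted p = 0.0013). The steroid dehydrogenase genes Hsd3b3 and Hsd17b2 rose by 1.37 and 0.62, and the conjugate exporter gene Abcc3 by 0.63.

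Smooth muscle had the highest median of the 40 lists, with all arrays and without arrays 22 and 23. Of 21 smooth muscle genes, 18 rose and none fell, with a median of 0.88 against 0.01 over all genes tested, and 8 were free of overlap. The contractile actin Acta2 rose by 0.68 and desmin, Des, by 1.18, both without overlap, and Synpo2 rose by 1.22 and the potassium channel subunit Kcnmb1 by 0.73. The mean of the list lay between 9.84 and 10.06 on FADD IEC-KO Zbp1 -/- arrays, between 8.41 and 9.95 on FADD IEC-KO arrays and between 10.07 and 10.29 on Fadd fl/fl arrays. Without arrays 22 and 23 its median was 0.51 and 1 gene, Pln, passed. Of 23 fibroblast and matrix genes, 8 rose and 2 fell. Dpt, dermatopontin of the matrix, had signals of 10.56, 10.06, 10.18, 10.16 and 10.74, against 9.86, 9.09, 8.95, 9.36 and 8.92 in FADD IEC-KO colon, and rose by 1.11 ± 0.20 (adjusted p = 0.000869; 0.04 without arrays 22 and 23). Ogn rose by 1.04 and Col6a1 by 0.41, while the BMP antagonist Grem1 fell by 0.88. Of 18 genes of enteric neurons and glia, 5 rose, including Elavl4 (0.57), Stmn2 (0.67), Syt1 (0.69) and Uchl1 (0.53), and 1 fell. Of 19 endothelial genes, the lymphatic receptor gene Lyve1 (0.94, no overlap), Emcn (0.55) and Ackr1 (0.44) rose, and 2 fell, among them the adhesion molecule gene Vcam1 (-0.82). The amount of muscle in each sample is not in the labels, and its part in these values was not tested.

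None of 25 proliferation genes passed, although 22 had lower means (median -0.16), and none of 13 tuft cell genes passed. Of 20 sterol and lipid synthesis genes, 3 fell, Abcg1 (-0.61), Lss (-0.71) and Srebf2 (-0.26), with 17 of lower mean, 5 free of overlap and a median of -0.39. The median was -0.40 without arrays 22 and 23, where none passed, and 2 passed with only the 10 arrays in the model. Of 24 respiratory chain genes, 1 rose and 1 fell. Among 17 clock genes 1 passed, the repressor Nfil3 (-0.84, adjusted p = 0.0466).

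**Figure D4:**
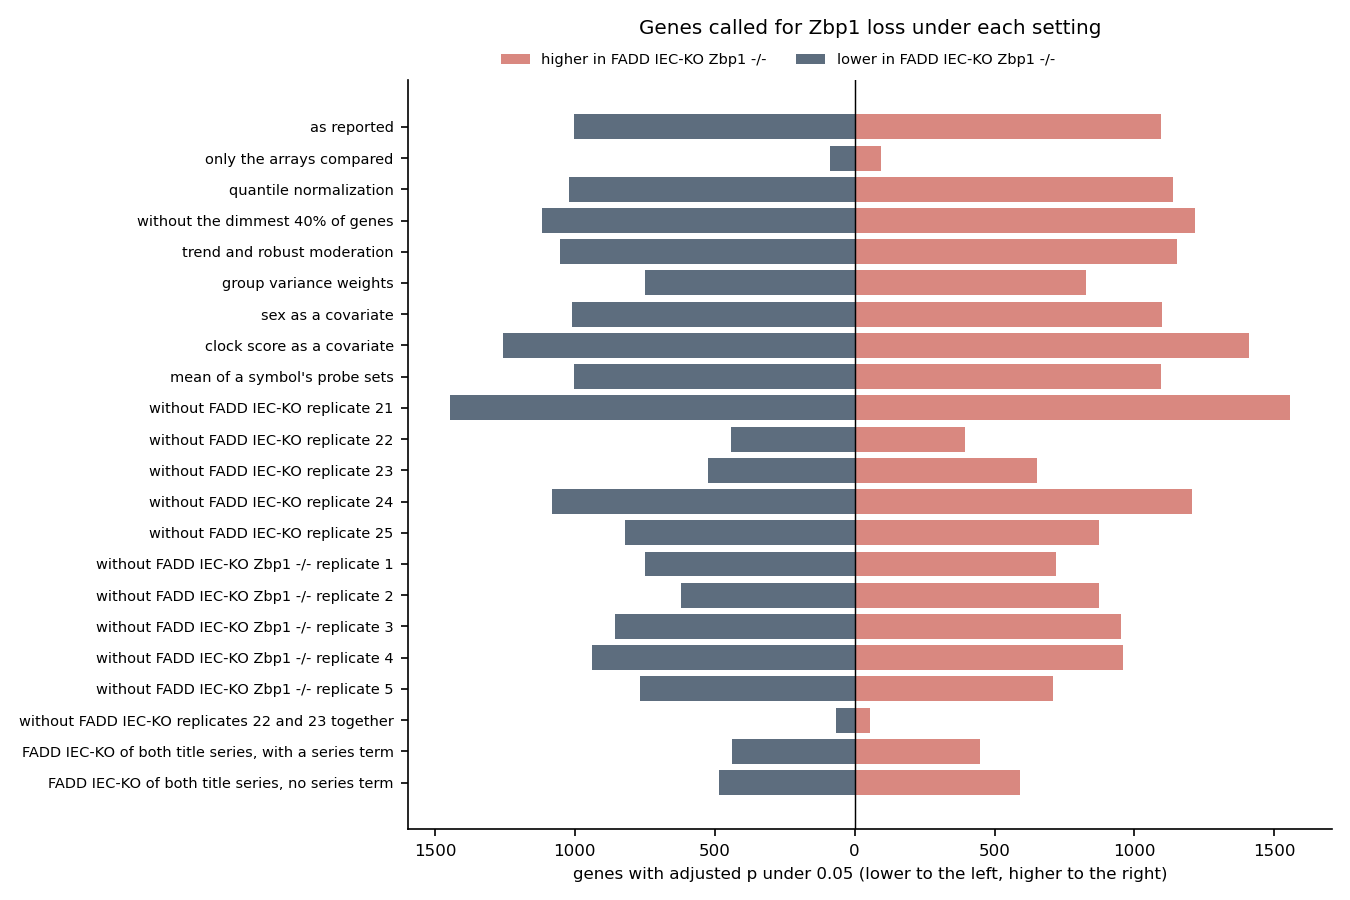
Genes with adjusted p under 0.05 (x axis) lower, to the left, and higher, to the right, in FADD IEC-KO Zbp1 -/- colon under each setting (y axis). The counts were 1094 higher and 1002 lower with all arrays, and 55 higher and 66 lower without FADD IEC-KO arrays 22 and 23.

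The dependence on single arrays was then described. For each gene called, each FADD IEC-KO array was checked against the range of the 5 FADD IEC-KO Zbp1 -/- arrays. The genes were called from these same arrays, so the shares follow in part from that choice and are no test. Array 21 lay inside that range for 440 of the 1002 lower genes (43.9%) and 459 of the 1094 higher genes (42.0%). Array 22 lay inside it for 57 (5.69%) and 36 (3.29%), and array 23 for 26 (2.59%) and 55 (5.03%). Arrays 24 and 25 were between these, at 174 (17.4%) and 176 (16.1%) for array 24 and 118 (11.8%) and 108 (9.87%) for array 25. The median size of the difference over the 2096 genes was 0.46 log2 with all arrays and 0.35 without arrays 22 and 23. Leaving out array 22 gave 394 higher and 441 lower genes and leaving out array 23 gave 651 and 524, while leaving out array 21 gave 1556 and 1445. Leaving out the FADD IEC-KO Zbp1 -/- arrays 1, 2 or 5 also moved a count by over 1.5 times, to 721 higher without array 1, 621 lower without array 2 and 710 higher without array 5.

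The arrays numbered 86 to 124 hold a FADD IEC-KO group and Casp8 fl/fl controls that share no array with the Zbp1 comparison. Genes that differed between these 2 groups were thus chosen by the means of other arrays. The fit that called them pools its spread over all arrays, those of the Zbp1 comparison included, so the choice is not fully independent. The controls are labelled as floxed for Casp8 and not for Fadd, so FADD loss and mouse line cannot be told apart here. In that set 2154 genes passed between FADD IEC-KO and Casp8 fl/fl (11%), 1326 higher (6.8%) and 828 lower (4.25%). Of the 1326 genes higher, 250 (18.9%) fell with Zbp1 loss, which are 25.0% of the 1002 that fell, and 42 rose. Of the 828 genes lower, 144 (17.4%) rose, which are 13.2% of the 1094 that rose, and 12 fell. Over all genes tested, 5.14% fell and 5.61% rose with Zbp1 loss. At any p, 959 of the 1326 genes had a lower mean with Zbp1 loss and 653 of the 828 a higher one. The median log2 difference of Zbp1 loss was -0.14 over the 1326 genes and 0.14 over the 828. Without arrays 22 and 23, where 121 genes passed in all, 9 and 3 genes remained in these overlaps, and the medians were -0.07 and 0.08. Set against the Fadd fl/fl mean, the 1326 genes had medians of 0.16, 0.09, 0.16, 0.23 and 0.14 on the FADD IEC-KO Zbp1 -/- arrays and of 0.17, 0.38, 0.36, 0.22 and 0.24 on the FADD IEC-KO arrays 21 to 25. Floxed arrays lay between -0.10 and 0.09, so that FADD IEC-KO Zbp1 -/- array 2 was about level with the highest floxed array. Arrays 22 and 23 were the highest, and arrays 21 and 24 lay within the range of FADD IEC-KO Zbp1 -/-. Over the 828 genes the medians ran from -0.20 to -0.08 on the FADD IEC-KO Zbp1 -/- arrays, from -0.50 to -0.18 on the FADD IEC-KO arrays and from -0.08 to 0.09 on the floxed arrays, where FADD IEC-KO Zbp1 -/- array 5 lay just inside the floxed range.

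FADD IEC-KO Zbp1 -/- colon was also set against Fadd fl/fl colon, where 209 genes passed (1.07%), 97 higher (0.498%) and 112 lower (0.575%). FADD IEC-KO colon against the same controls gave 3650 (18.7%), 1674 higher (8.59%) and 1976 lower (10.1%). These comparisons share the floxed arrays, and a gene that did not pass is not shown to be at the floxed level. Fadd itself differed by -1.15 (adjusted p = 5.22e-09). Tnfsf10, which encodes the death ligand TRAIL, had signals of 7.05, 7.52, 7.73, 8.16 and 7.12 in FADD IEC-KO Zbp1 -/- colon, against 7.11, 8.10, 8.02, 7.62 and 7.86 in FADD IEC-KO colon and 6.01, 6.26, 6.07, 6.21 and 6.45 in Fadd fl/fl colon. Both deleted groups lay above all floxed arrays, Tnfsf10 was 1.31 higher than in Fadd fl/fl colon (adjusted p = 0.000185), and Zbp1 loss changed it by -0.23 (adjusted p = 0.529). The complement gene C4b lay between the groups, with differences of 0.57 from Fadd fl/fl colon (adjusted p = 0.02) and -0.57 from FADD IEC-KO colon (adjusted p = 0.00482). Of the 12 interferon-inducible GTPases none passed against Fadd fl/fl, with a median of 0.68.

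Zbp1 loss was then compared with loss of the necroptosis executor MLKL. Against FADD IEC-KO Mlkl -/- colon, 83 genes passed (0.426%), 44 higher (0.226%) and 39 lower (0.2%) in FADD IEC-KO Zbp1 -/- colon. The comparisons of Zbp1 loss and Mlkl loss with FADD IEC-KO share its 5 arrays, so their values are given side by side only. Mlkl loss called 1140 genes (5.85%), 568 higher (2.91%) and 572 lower (2.93%). The interferon-inducible GTPases had medians of -1.17 with Zbp1 loss and -1.41 with Mlkl loss, neutrophil genes of -1.14 and -1.22, smooth muscle genes of 0.88 and 1.01, and none of the 12 GTPases or 20 neutrophil genes passed between the losses. Type I interferon-stimulated genes had a median of -0.33 with Zbp1 loss and 0.08 with Mlkl loss, and 1 of 26 passed between them. That gene was Irf7, at 8.39, 8.09, 8.35, 8.15 and 8.06 in FADD IEC-KO Zbp1 -/- colon, against 9.52, 9.55, 9.51, 9.04 and 8.99 in FADD IEC-KO Mlkl -/- colon, a difference of -1.11 ± 0.25 without overlap (adjusted p = 0.0273). Each targeted gene was lower in its own knockout, with Zbp1 at -1.32 (adjusted p = 0.00943) and Mlkl at 1.52 (adjusted p = 1.18e-07), and Casp8 differed by -0.46 (adjusted p = 0.0405). Tnfsf10 was 0.86 higher in FADD IEC-KO Zbp1 -/- colon than in FADD IEC-KO Mlkl -/- colon (adjusted p = 0.0389), where it differed by -1.09 from FADD IEC-KO (adjusted p = 0.00209). The small heat shock protein gene Hspb7 differed by -1.27 (adjusted p = 0.0415), at 7.84 to 8.58 against 9.23 to 9.81.

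Epithelial RIPK3 loss was measured on the arrays numbered 86 to 124 against the FADD IEC-KO group there. It called 147 genes (0.754%), 31 higher (0.159%) and 116 lower (0.595%). Of those 116, 28 (24.1%) also fell with Zbp1 loss, which are 2.79% of the 1002, and 7 rose. Of the 31 genes higher, 4 (12.9%) rose with Zbp1 loss and 2 fell. Over all genes tested, 5.14% fell and 5.61% rose with Zbp1 loss. At any p, 68 of the 116 genes had a lower mean with Zbp1 loss and 20 of the 31 a higher one. Without arrays 22 and 23, 1 gene remained in each overlap, and the median difference of Zbp1 loss over the 116 genes was 0.00, against -0.08 with all arrays. The difference between the 2 differences passed for 251 genes (1.29%), 136 higher (0.698%) and 115 lower (0.59%) with Zbp1 loss. None of the interferon-inducible GTPases, class I, class II or neutrophil genes was among them. Retnlb differed by -4.77 with Zbp1 loss and -2.77 with RIPK3 loss, and the difference between them did not pass (adjusted p = 0.458). The FADD IEC-KO groups of both sets enter this contrast, and they differed in the creatine transporter gene Slc6a8. Its difference of -1.11 (adjusted p = 0.000629) came from -0.38 with Zbp1 loss and 0.73 with RIPK3 loss, and the 2 FADD IEC-KO groups averaged 12.36 (arrays 21 to 25) and 11.67 (arrays 89 to 124). Acta1, an actin of striated muscle, rose by 1.03 with Zbp1 loss and differed by -0.35 with RIPK3 loss (difference 1.37, adjusted p = 0.00268).

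**Figure D5:**
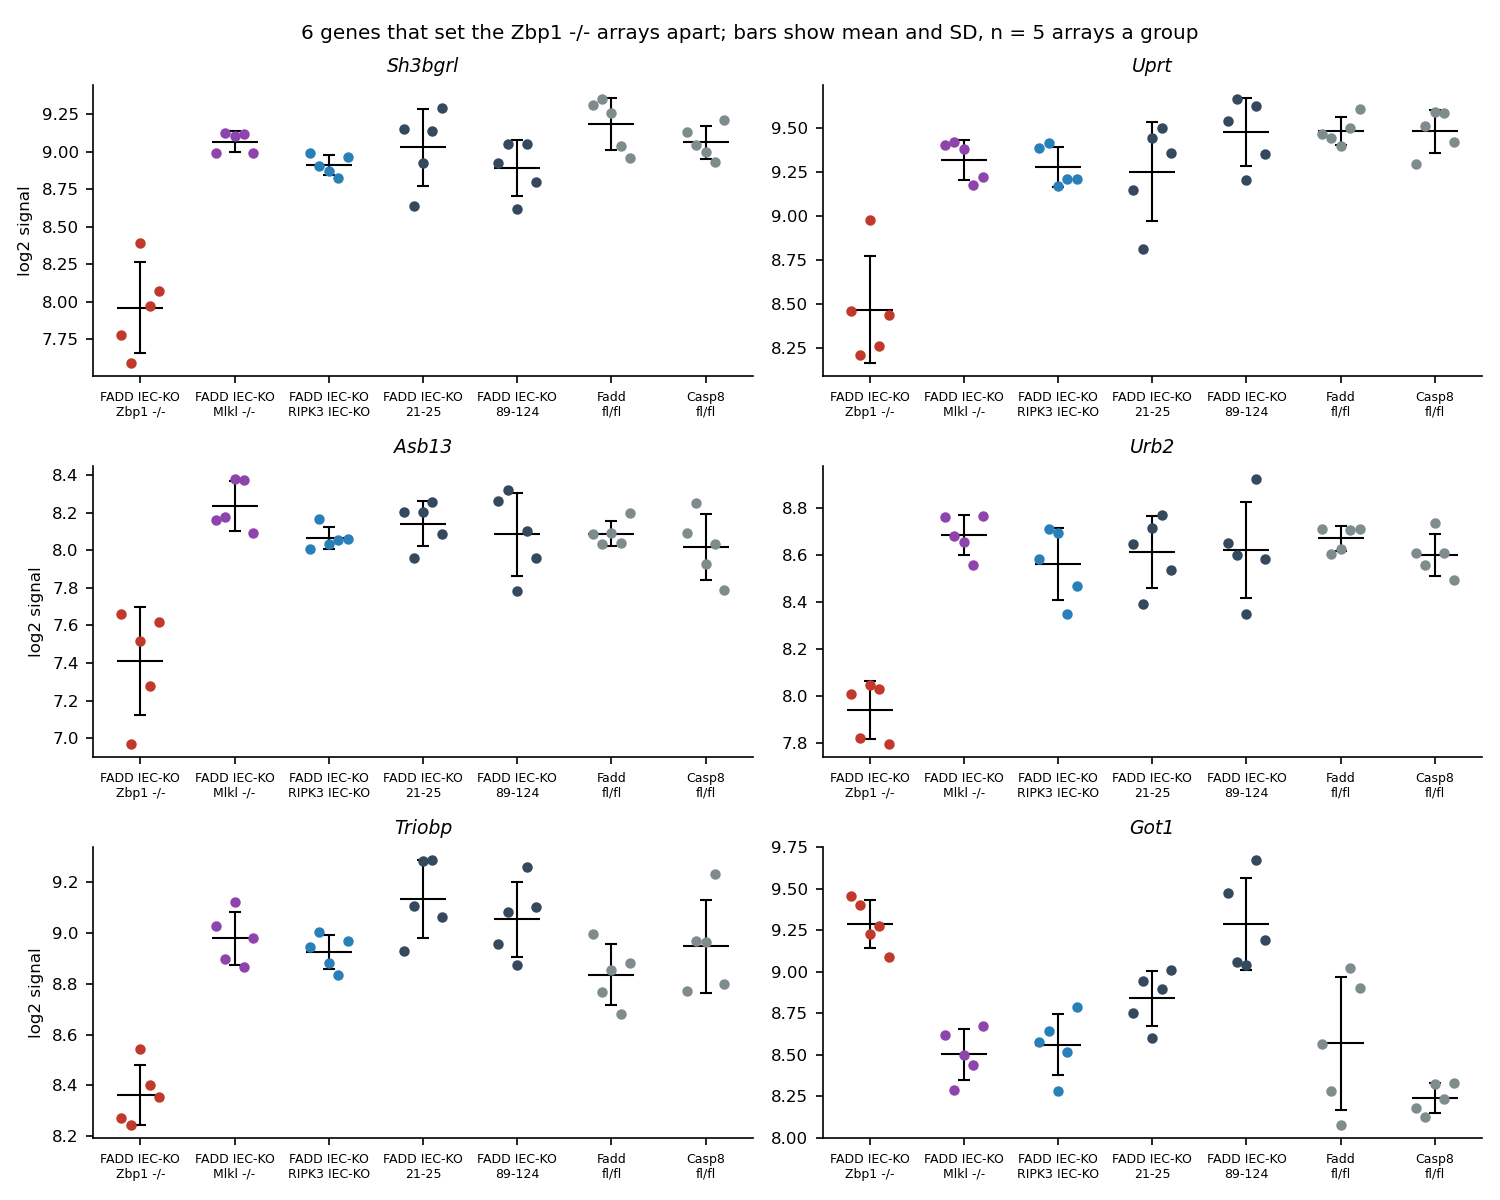
Log2 signal (y axis) of 6 genes chosen after their values were seen, on each array of 7 groups (x axis), with the mean and SD of 5 arrays. FADD IEC-KO Zbp1 -/- arrays lay below the other groups in Asb13, Urb2 and Triobp, and in Got1 the FADD IEC-KO arrays 89 to 124 were as high as FADD IEC-KO Zbp1 -/-.

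A small set of genes differed in FADD IEC-KO Zbp1 -/- colon from FADD IEC-KO, FADD IEC-KO Mlkl -/- and Fadd fl/fl colon alike. It was found after the values were seen and is given as a description. It held 21 genes, 16 lower and 5 higher, of which 19 did not pass between FADD IEC-KO and Fadd fl/fl, and 12 passed against FADD IEC-KO without arrays 22 and 23. Sh3bgrl had signals of 7.78, 7.59, 8.39, 7.97 and 8.07 in FADD IEC-KO Zbp1 -/- colon, against 9.15, 8.64, 8.92, 9.14 and 9.29 in FADD IEC-KO colon and 9.31, 9.35, 9.26, 9.04 and 8.96 in Fadd fl/fl colon, a difference of -1.07 ± 0.12. Uprt had signals of 8.46, 8.21, 8.98, 8.26 and 8.44, against 9.15, 8.81, 9.45, 9.50 and 9.36 in FADD IEC-KO colon. Both genes lie on the X chromosome. Triobp, an actin-bundling protein gene, had signals of 8.27, 8.24, 8.54, 8.40 and 8.36, against 8.93, 9.10, 9.28, 9.29 and 9.06 in FADD IEC-KO colon. Triobp, Asb13, Urb2, Zfand2a and the Notch pathway ubiquitin ligase gene Mib1 were lower on the 5 FADD IEC-KO Zbp1 -/- arrays than on all 45 other arrays. The same count, in either direction, was 0 to 4 genes in each of the 9 other groups (4 in FADD IEC-KO, arrays 21 to 25). The transcriptional repressor Snai2 differed by -0.85, the reductase gene Cyb5r3 by -0.70, Dcaf1 by -0.61 and Mlec by -0.60. Tmem106a (0.51), the aspartate aminotransferase gene Got1 (0.45), Abhd4, Mrpl38 and Slc25a11 were the 5 higher ones.

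The genes next to Zbp1 were read as well. Of the 15 nearest named protein-coding genes on either side in RefSeq order, 29 were measured. Rae1 rose by 0.30 and Gnas by 0.20, and Pmepa1 fell by 0.70 and Atp5e by 0.28. The other 25 did not pass, and over all genes tested 10.8% passed. Without array 22 alone, Rae1, Gnas, Pmepa1 and Atp5e did not pass either. Pmepa1 had signals of 8.27, 7.72, 7.90, 7.84 and 8.28 in FADD IEC-KO Zbp1 -/- colon, against 7.96, 9.34, 9.29, 8.36 and 8.53 in FADD IEC-KO colon, with arrays 22 and 23 again the highest.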

How the data were processed

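Colon RNA (100 ng per array, per the labels' protocols) was hybridised to Affymetrix whole-transcript arrays. The authors deposited log2 signals per probe set, made in Affymetrix Expression Console and Transcriptome Analysis Console per the submitters' processing notes; neither versions nor how signals were normalized is given in the sources used here. Of 22142 probe sets, 19527 carried 1 symbol and 2615 none, and 33 were dropped for a brighter probe set of the same symbol, which left 19494 genes. Without detection calls no gene is described as absent, and the number of arrays limits the precision.

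A mean per group was fitted over 10 groups of 5 arrays in limma 3.58.1 (R 4.3.3; 40 residual degrees of freedom), with empirical Bayes moderation and Benjamini-Hochberg adjustment over all genes. SEs of genes come from this fit and share its spread over all groups, so they can understate the spread of the FADD IEC-KO arrays. The threshold was an adjusted p under 0.05. Groups follow genotype and title-number series (1 to 30, 86 to 124), whose meaning the labels do not give. The step was tested on simulated data. Tables were handled in pandas 2.3.3.

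The comparison and the 40 gene lists (847 genes written, 768 measured, 5 under updated symbols) were chosen with earlier results of these data known. Named genes were the targets, the 12 largest falls and 12 largest rises without overlap, up to 4 members per list by adjusted p, up to 6 each way against the other losses, called neighbours of Zbp1 and the 5 most dispersed list genes. Genes named besides these, such as cell markers and those shown for their promoters, were chosen after their values were seen. Gene names, gene order and promoters came from RefSeq (GRCm38.p6). Alternatives were the arrays compared alone, quantile normalization, robust moderation with a trend, leaving out the 40% of genes with the lowest mean, group variance weights, sex or a clock score as covariate, probe set means, a 2-fold requirement, pooled FADD IEC-KO groups, and leaving out arrays.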

Additional observations from a re-analysis of the deposited data

Results flagged for a closer look

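Among 452 sets of 5 arrays tested for a single distant array (named genes and list means in both groups), 24 had one by Dixon's criterion, where chance gives about 1 in 20. On FADD IEC-KO Zbp1 -/- array 1 the signal was 9.63 for Slc37a2, whose other 4 arrays lay between 10.91 and 11.26. On FADD IEC-KO Zbp1 -/- array 2 the signal was 5.76 for Cd163, whose other 4 arrays lay between 6.45 and 6.55, 8.91 for Elf2, whose other 4 arrays lay between 9.19 and 9.28, and 5.85 for H2-DMa, whose other 4 arrays lay between 6.35 and 6.56. Array 2 of FADD IEC-KO Zbp1 -/- also gave 7.43 for Syt1, whose other 4 arrays lay between 7.61 and 7.68. On FADD IEC-KO Zbp1 -/- array 3 the signal was 9.38 for Kcnmb1, whose other 4 arrays lay between 9.57 and 9.62. On FADD IEC-KO Zbp1 -/- array 4 the signal was 7.53 for Gbp3, whose other 4 arrays lay between 6.68 and 6.86, and 8.10 for the endoplasmic reticulum stress and amino acid response list mean, whose other 4 arrays lay between 7.89 and 7.92. On FADD IEC-KO Zbp1 -/- array 5 the signal was 8.60 for C4b, whose other 4 arrays lay between 8.20 and 8.31, 8.05 for Hspb8, whose other 4 arrays lay between 7.73 and 7.80, and 7.76 for Lss, whose other 4 arrays lay between 8.28 and 8.47. Array 5 of FADD IEC-KO Zbp1 -/- also gave 8.96 for Tmem106a, whose other 4 arrays lay between 9.39 and 9.48, 7.35 for Uchl1, whose other 4 arrays lay between 7.57 and 7.64, and 9.88 for the colonocyte list mean, whose other 4 arrays lay between 10.08 and 10.13. It further gave 8.29 for the sterol and lipid synthesis list mean, whose other 4 arrays lay between 8.45 and 8.52. On FADD IEC-KO array 21 the signal was 6.09 for C1qtnf3, whose other 4 arrays lay between 4.96 and 5.26, 10.02 for Clca4b, whose other 4 arrays lay between 11.88 and 12.60, and 8.46 for H2-DMb1, whose other 4 arrays lay between 10.64 and 10.92. Array 21 of FADD IEC-KO also gave 7.21 for Tapbpl, whose other 4 arrays lay between 8.25 and 8.52. On FADD IEC-KO array 22 the signal was 8.35 for Alox5ap, whose other 4 arrays lay between 7.19 and 7.33, 7.04 for Ehhadh, whose other 4 arrays lay between 7.73 and 7.90, and 7.34 for Ltf, whose other 4 arrays lay between 4.89 and 5.37. Array 22 of FADD IEC-KO also gave 9.62 for the goblet cell list mean, whose other 4 arrays lay between 10.11 and 10.30. On FADD IEC-KO array 23 the signal was 8.62 for Tmem106a, whose other 4 arrays lay between 8.86 and 8.91. These are values, and no cause was tested.

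By limma's test of the difference, 83 genes differed between Zbp1 loss and Mlkl loss and 251 between Zbp1 loss and RIPK3 loss. By rule, up to 6 passing genes each way were named for each comparison. The 24 pairs below follow from that rule and are no count of all that differed. Taken as Zbp1 loss minus Mlkl loss (log2), with the adjusted p second, the difference was positive for Mlkl (1.52, 1.18e-07), Tnfsf10 (0.86, 0.0389), Slc7a9 (0.85, 0.023), Ces2a (0.79, 0.0356), Got1 (0.79, 0.00244) and Cited2 (0.77, 0.0165). It was negative for Zbp1 (-1.32, 0.00943), Hspb7 (-1.27, 0.0415), Irf7 (-1.11, 0.0273), Sh3bgrl (-1.11, 1.18e-07), Cyb5r3 (-0.90, 0.00326) and Uprt (-0.85, 2.89e-05). Taken as Zbp1 loss minus RIPK3 loss (log2), with the adjusted p second, the difference was positive for Acta1 (1.37, 0.00268), Got1 (1.18, 0.000772), Tmem106a (1.09, 0.0005), Mep1b (1.04, 0.0445), Cited2 (1.03, 0.0177) and Alg3 (0.99, 0.00318). It was negative for Slc6a8 (-1.11, 0.000629), Sh3bgrl (-1.09, 0.000446), Cox15 (-1.02, 0.0031), Etv3 (-0.96, 0.00151), Marcks (-0.96, 0.00479) and Nmrk1 (-0.96, 0.0314). The comparison with RIPK3 loss spans the 2 title-number series, and the FADD IEC-KO groups of both enter it.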

How the results depend on the processing

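No paired analysis was possible because the groups compared share no replicate numbers. None of the 170 named genes past the threshold changed sign under any setting. Of all 2096 called genes, 2094 kept their sign without arrays 22 and 23. These genes were chosen for passing on these arrays, and the settings reuse all or most of the arrays, so kept signs are no separate support. The median of 1 of 40 lists changed sign without arrays 22 and 23, inflammasome and pyroptosis (0.02, and -0.05 without them). For Zbp1 loss, 1094 genes were higher and 1002 lower; these became 96 and 88 with the compared arrays alone, 55 and 66 without FADD IEC-KO arrays 22 and 23, 449 and 440 with FADD IEC-KO of both series and a series term, 591 and 484 without that term, and 65 and 119 with a 2-fold requirement. Leaving out 1 array gave 394 to 1556 higher and 441 to 1445 lower. Zbp1 loss against Mlkl loss (83 genes) gave 152 without dim genes, 284 with group variance weights, 5 at 2-fold and 34 to 98 with 1 array left out. Zbp1 loss against RIPK3 loss (251) gave 79 with the compared arrays alone, 396 without dim genes, 110 with group weights, 149 without arrays 22 and 23, 8 at 2-fold and 134 to 363 with 1 array left out. FADD IEC-KO against Fadd fl/fl (3650) gave 1784 with the compared arrays alone, 682 without arrays 22 and 23 and 347 at 2-fold. FADD IEC-KO against Casp8 fl/fl (2154) gave 787 alone, 1430 with group weights and 102 at 2-fold. FADD IEC-KO Zbp1 -/- against Fadd fl/fl (209) gave 106 alone, 384 without dim genes, 552 with group weights, 75 with the clock score and 14 at 2-fold. The compared arrays alone leave fewer degrees of freedom, and a 2-fold requirement can only lower a count; for the other settings the cause was not tested. Of 170 named genes past the threshold, 133 missed it with the 10 arrays alone, 147 without arrays 22 and 23, 76 without array 22, 46 without array 23, 12 with group weights, and 63 and 57 with FADD IEC-KO of both series, with and without a series term. Leaving out array 21, 24 or 25 lost 2, 2 and 21, and leaving out single FADD IEC-KO Zbp1 -/- arrays 15 to 30. The difference shrank by over 1.5 times for 69 of the 170 without arrays 22 and 23, 22 without array 22 and 0 without array 23. Quantile normalization, dim gene removal, trend moderation, sex, the clock score and probe set means each lost at most 4.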

Other observations

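Genes that stood apart from Fadd fl/fl colon in FADD IEC-KO Zbp1 -/- mice, chosen after their values were seen, included transport and signalling genes of the epithelium. The water channel gene Aqp4 was 2.01 higher than in Fadd fl/fl colon and the phosphate transporter gene Slc34a2 1.98 higher. The monocyte chemokine gene Ccl8 was 1.55 higher, Ddah1, which degrades nitric oxide synthase inhibitors, 1.50 higher and the epithelial NADPH oxidase gene Nox1 1.44 higher. In FADD IEC-KO colon against the same controls the differences were 2.05 for Aqp4, 0.20 for Slc34a2, 2.26 for Ccl8, 2.66 for Ddah1 and 1.57 for Nox1, so that Slc34a2 alone of these 5 lacked a difference of over 1 log2 unit with FADD loss. Relative to FADD IEC-KO colon, Slc34a2 rose by 1.79 with Zbp1 loss and Aqp4 differed by -0.05. Tmem267 and Anxa8 differed from Fadd fl/fl colon by -1.33 and -1.28.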
